A study of Mus musculus with 4 samples.

Results

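The genes described here encode the proteins that carry new secretory proteins into the endoplasmic reticulum and on to the Golgi. They were chosen by name, as 40 listed genes of 5 steps: targeting to the endoplasmic reticulum (8 genes), translocation across its membrane (11), removal of the signal peptide (5), COPII vesicle coats (9) and COPI vesicle coats (7). Of these, 36 were measured among 12393 named genes: 6 targeting, 10 translocation, 5 signal cleavage, 8 COPII and 7 COPI genes. Srp54a and Sec61g lay only on probe sets that name several genes, and Srp72 and Sec24a had no probe set under those names in the annotation, so these 4 are not reported here. The arrays held liver RNA of 4 groups of male mice aged 12 to 20 weeks: PPARα-null mice fed Wy14643, PPARα-null mice on normal food, wild-type mice fed Wy14643 and wild-type mice on normal food. PPARα-null mice lack peroxisome proliferator-activated receptor α, a nuclear receptor that liver uses to switch on fatty acid oxidation, in all cells, and Wy14643, a synthetic PPARα agonist, was mixed into the food at 0.1% by weight for 5 days. Each group was 1 array of RNA pooled within the group, from 5 mice per group according to the design description, so there was no replicate check, no test was made, and the small number of arrays sets how precise a ratio can be. PPARα-null mice are labelled 129S4/SvJae and wild-type mice 129S1/SvImJ, so genotype and substrain cannot be told apart. For 1 wild-type sample the description says control where title and source name Wy14643; title and source were followed.

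Hepatocytes make most plasma proteins, and these pass through the secretory pathway. The signal recognition particle (SRP) binds the signal sequence as it leaves the ribosome and docks at its receptor. The chain then threads through the Sec61 channel, and the signal peptidase complex cuts the signal sequence off. COPII coats bud vesicles that leave the endoplasmic reticulum, and COPI coats bud those that return to it from the Golgi. Many of these genes are known targets of the unfolded protein response, through the factors XBP1 and ATF6.

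The values are GCRMA intensities on a linear scale, and ratios are given as log2 differences or as folds. A gene was called higher or lower where the ratio of 2 arrays reached 1.5-fold, the threshold of the study, and where it was above background on at least 1 of them. Background was an intensity of 12.7, the 90th percentile of 67 probe sets for 48 genes not expressed in liver, and 53.8 to 54.8% of probe sets lay above it on the 4 arrays. Ppara itself was at 428 on the PPARα-null Wy14643 array, 326 on the PPARα-null control array, 1250.1 on the wild-type Wy14643 array and 847 on the wild-type control array, that is 2.92-fold lower in PPARα-null livers relative to wild-type livers under Wy14643 and 2.60-fold lower on control food. The sources used here do not say whether its probe set lies within the deletion. The hepatocyte markers were all above background, and 4 of 5 cholangiocyte markers (Krt7, Krt19, Epcam and Cftr) were not on any array. Markers of other cell types also differed with treatment. The summed intensity of 9 Kupffer cell markers, of which Marco was below background throughout, was 659 and 1296 in PPARα-null livers (Wy14643 and control) and 427 and 1086 in wild-type livers (Wy14643 and control), and 8 of 8 markers above background were lower on Wy14643 in PPARα-null livers and 7 of 8 in wild-type livers. The summed intensity of 10 stellate cell markers, of which Lrat, Des and Hand2 were below background throughout, was 2834 and 2641 in PPARα-null livers and 1148 and 2251 in wild-type livers in the same order, and 3 of 7 were higher and 1 lower in PPARα-null livers, while 0 of 6 were higher and 4 lower in wild-type livers. The summed intensity of 10 sinusoidal endothelial markers was 455 and 728 in PPARα-null livers (Wy14643 and control) and 487 and 699.8 in wild-type livers (Wy14643 and control), with 4 of 10 lower on Wy14643 in PPARα-null livers and 1 of 9 in wild-type livers. Of 7 hepatocyte markers, 0 were lower on Wy14643 in PPARα-null livers and 3 in wild-type livers, with summed intensities of 76104 and 77143 in PPARα-null livers (Wy14643 and control) and 68461 and 77673 in wild-type livers (Wy14643 and control). In bulk liver RNA, fewer cells of a type and less RNA per cell cannot be told apart, and the part of these shifts in the results below was not tested.

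Few of the 36 genes passed the threshold. On Wy14643 against control in PPARα-null livers, 0 were higher and 0 were lower, against 2.26% and 4.36% of all named genes. In wild-type mice, Wy14643 left 1 gene higher (2.78% of the 36, against 14.8% of all named genes) and 5 lower (13.9%, against 15.7%). Between the genotypes on Wy14643, 6 were higher (16.7%, against 17.3%) and 4 lower (11.1%, against 16.3%) in PPARα-null than in wild-type livers. On control food, 0 were higher and 0 lower in PPARα-null livers, against 2.47% and 2.44% of all named genes. The shares of lower genes in wild-type livers and of higher genes in PPARα-null livers on Wy14643 were thus near the background share. In all, 10 of the 36 passed 1.5-fold in at least 1 comparison and 26 in none. The matching share of all named genes is not given here, so these 2 counts do not set the genes apart. Because 0 were called on Wy14643 in PPARα-null livers, none could pass it in opposite directions in the 2 genotypes. Of the 4 lower in PPARα-null livers under Wy14643, Sar1a had a second probe set with the opposite direction.

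**Figure D1:**
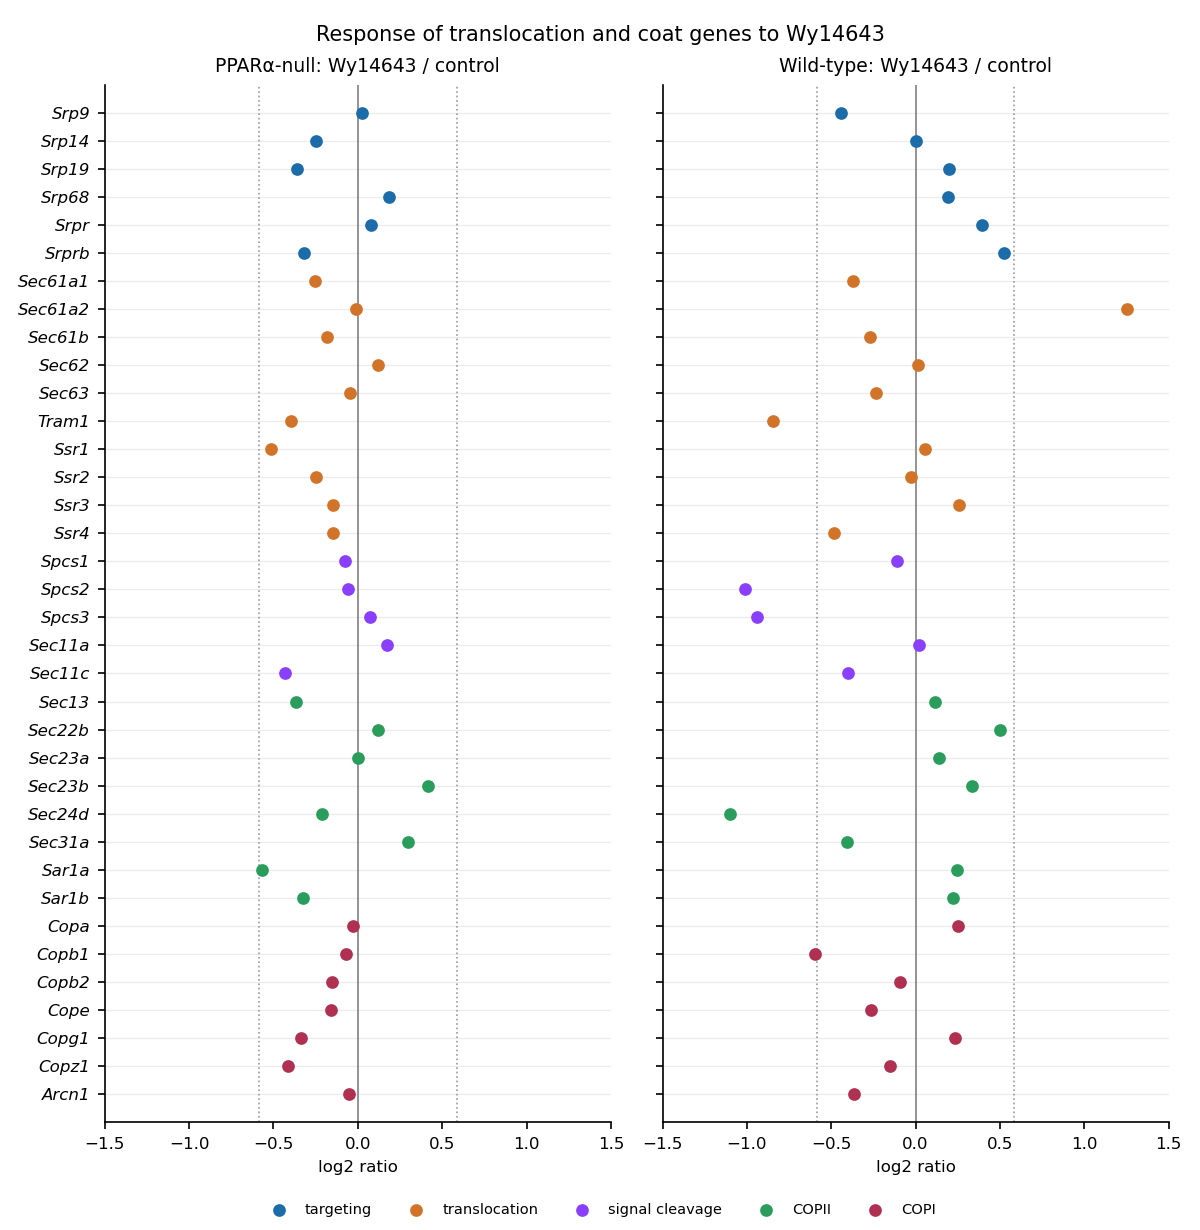
Log2 ratio of Wy14643 over control for each of the 36 genes, ordered by step, in PPARα-null and wild-type mice (1 pooled array per group, no error bars; dotted lines mark 1.5-fold). No PPARα-null value passed the lines, while Tram1, Spcs2, Spcs3, Sec24d and Copb1 lay below them in wild-type livers and Sec61a2 above.

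The log2 ratios of the 36 genes also spread less than those of all genes. The SD over the genes was 0.23 for Wy14643 over control in PPARα-null livers (0.33 over all named genes) and 0.48 in wild-type livers (0.87), and it was 0.54 between PPARα-null and wild-type mice on Wy14643 (0.97) and 0.16 on control food (0.34). The genes counted were mostly bright: 35 of 36 were above background on all 4 arrays, against 6707 of the 12393 named genes, and the part of brightness in the spread was not tested. Sec61a2 was the 1 gene of the 36 not above background on all 4 arrays. The difference of the Wy14643 responses, PPARα-null minus wild-type, had a median of -0.02 over the 36 genes, against -0.00 over 7991 named genes. Of the 36, 22 had the larger absolute ratio in wild-type livers. The matching share of all named genes is not given here. Their ratios also spread more in wild-type (SD 0.87) than in PPARα-null livers (0.33), so this count does not set the 36 genes apart.

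**Figure D2:**
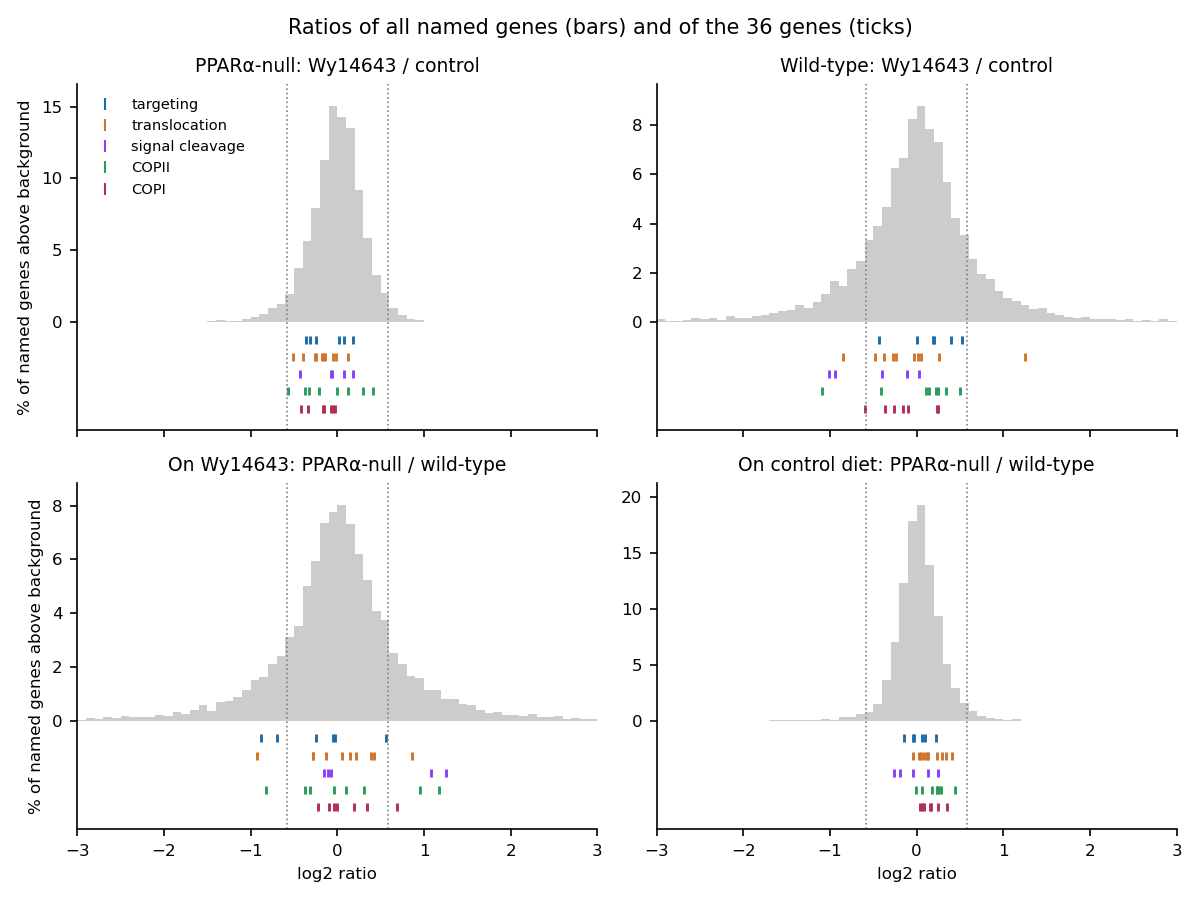
Log2 ratios (x axis) of all named genes above background, as grey histograms in percent of genes (y axis), with the 36 genes as ticks coloured by step below 0, in each of the 4 comparisons; dotted lines mark 1.5-fold and genes beyond a log2 ratio of 3 in size are off the axis. The histograms are wide for Wy14643 in wild-type livers and for the genotypes under Wy14643, and the 36 genes spread less than all genes in all 4 panels.

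None of the 6 targeting genes passed 1.5-fold on Wy14643 in either genotype, and 2 were lower in PPARα-null livers relative to wild-type livers under Wy14643. Their median log2 ratio on Wy14643 was -0.11 in PPARα-null livers and 0.19 in wild-type livers, with 3 of 6 and 5 of 6 above 0. Srp19, whose product helps assemble the SRP, had intensities of 52.7 on the PPARα-null Wy14643 array, 67.7 on the PPARα-null control array, 85.7 on the wild-type Wy14643 array and 74.9 on the wild-type control array. It was 1.62-fold lower in PPARα-null livers relative to wild-type livers under Wy14643 (log2 -0.70), while neither response to Wy14643 reached 1.5-fold (log2 -0.36 in PPARα-null, 0.20 in wild-type livers). Srprb, which anchors the SRP receptor in the membrane, was dim, at 13.7 and 17.1 in PPARα-null livers (Wy14643 and control) and 25.3 and 17.6 in wild-type livers (Wy14643 and control). It was 1.84-fold lower in PPARα-null livers on Wy14643, with the wild-type Wy14643 array standing above the rest, yet its other probe sets gave log2 ratios of -0.19 and -0.27. The 4 others (Srp9, Srp14, Srp68 and Srpr) passed 1.5-fold in no comparison. Srp9, part of the SRP domain that slows translation, was at 1458 and 1434 in PPARα-null livers (Wy14643 and control) and 986 and 1338 in wild-type livers (Wy14643 and control). Of the 4 it came nearest the threshold, at a log2 ratio of 0.56 for PPARα-null over wild-type livers on Wy14643. Srp14, its partner, was at 963 and 1143 in PPARα-null livers (Wy14643 and control) and 983 and 980.4 in wild-type livers (Wy14643 and control).

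Of the 10 translocation genes 2 passed 1.5-fold, in opposite directions. Their median log2 ratio on Wy14643 was -0.17 in PPARα-null livers and -0.13 in wild-type livers. Tram1, a membrane protein beside the Sec61 channel that helps some signal sequences into it, had intensities of 2101 on the PPARα-null Wy14643 array, 2770.1 on the PPARα-null control array, 1157 on the wild-type Wy14643 array and 2081 on the wild-type control array. The wild-type Wy14643 array was the lowest by a wide gap: Tram1 was 1.80-fold lower on Wy14643 in wild-type livers (log2 -0.85) and 1.82-fold higher in PPARα-null livers relative to wild-type livers under Wy14643 (log2 0.86). In PPARα-null mice it was also below control, by 1.32-fold (log2 -0.40), under the threshold. Sec61a2, the second gene for the channel's core subunit, lay near background at 13.9 and 14.03 in PPARα-null livers (Wy14643 and control) and 26.5 and 11.1 in wild-type livers (Wy14643 and control). Because its wild-type control value was below background, it was at least 2.09-fold higher on Wy14643 in wild-type livers, and on Wy14643 it was 1.90-fold lower in PPARα-null than in wild-type livers. A second Sec61a2 probe set was above background on the wild-type Wy14643 array alone, at 7.05 and 7.89 in PPARα-null livers (Wy14643 and control) and 15.6 and 8.88 in wild-type livers (Wy14643 and control). The main core subunit gene, Sec61a1, was at 1875 and 2238 in PPARα-null livers (Wy14643 and control) and 1692 and 2189 in wild-type livers (Wy14643 and control). It was below control in both genotypes by under 1.5-fold (log2 -0.26 in PPARα-null, -0.37 in wild-type livers). Sec61b, the small channel subunit, was at -0.18 and -0.27 on the log2 scale in the same comparisons. The 4 genes of the TRAP complex (Ssr1 to Ssr4), which assists translocation beside the channel, had log2 ratios of -0.51 to -0.15 in PPARα-null livers and of -0.49 to 0.26 in wild-type livers on Wy14643, and all 4 were below 0 in PPARα-null livers. Sec62 and Sec63, partners of the channel in post-translational transport, stayed under 1.5-fold throughout on the probe sets that stand for them.

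Of the 5 signal peptidase genes 2 were lower on Wy14643 in wild-type livers and 0 in PPARα-null livers. These were Spcs2 and Spcs3, which encode accessory subunits of the complex, whereas the third accessory subunit, Spcs1, and the catalytic subunits Sec11a and Sec11c did not pass 1.5-fold in any comparison. Spcs2 had intensities of 970.4 on the PPARα-null Wy14643 array, 1012 on the PPARα-null control array, 459 on the wild-type Wy14643 array and 927 on the wild-type control array. It was 2.02-fold lower on Wy14643 in wild-type livers (log2 -1.01) and 2.11-fold higher in PPARα-null livers relative to wild-type livers under Wy14643 (log2 1.08), with a log2 ratio of -0.06 for Wy14643 over control in PPARα-null livers. Spcs3 followed the same order, at 938 and 892 in PPARα-null livers (Wy14643 and control) and 392 and 753 in wild-type livers (Wy14643 and control). It was 1.92-fold lower on Wy14643 in wild-type livers (log2 -0.94) and 2.39-fold higher in PPARα-null livers relative to wild-type livers under Wy14643 (log2 1.26), the highest such ratio of the 36 genes. On the probe sets that stand for these genes, 3 arrays lay close together and the wild-type Wy14643 array lay below them. A second, dimmer Spcs2 probe set fell with treatment in both genotypes, with log2 ratios of -0.46 (PPARα-null) and -0.67 (wild-type). Between the genotypes on Wy14643 this second probe set gave a log2 ratio of 0.32, under 1.5-fold. For Spcs2 the pattern of 3 close arrays thus rests on 1 probe set. Spcs1 was at 1158 and 1221 in PPARα-null livers (Wy14643 and control) and 1288 and 1390.1 in wild-type livers (Wy14643 and control). In wild-type livers its log2 ratio on Wy14643 was -0.11, while a second bright Spcs1 probe set ran the opposite way, at 0.43. That second one was at -0.53 for PPARα-null over wild-type livers on Wy14643, under 1.5-fold. Sec11a had log2 ratios for Wy14643 over control of 0.18 in PPARα-null and 0.02 in wild-type livers, and Sec11c of -0.43 and -0.40. The median over the 5 genes was -0.06 in PPARα-null livers and -0.40 in wild-type livers.

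**Figure D3:**
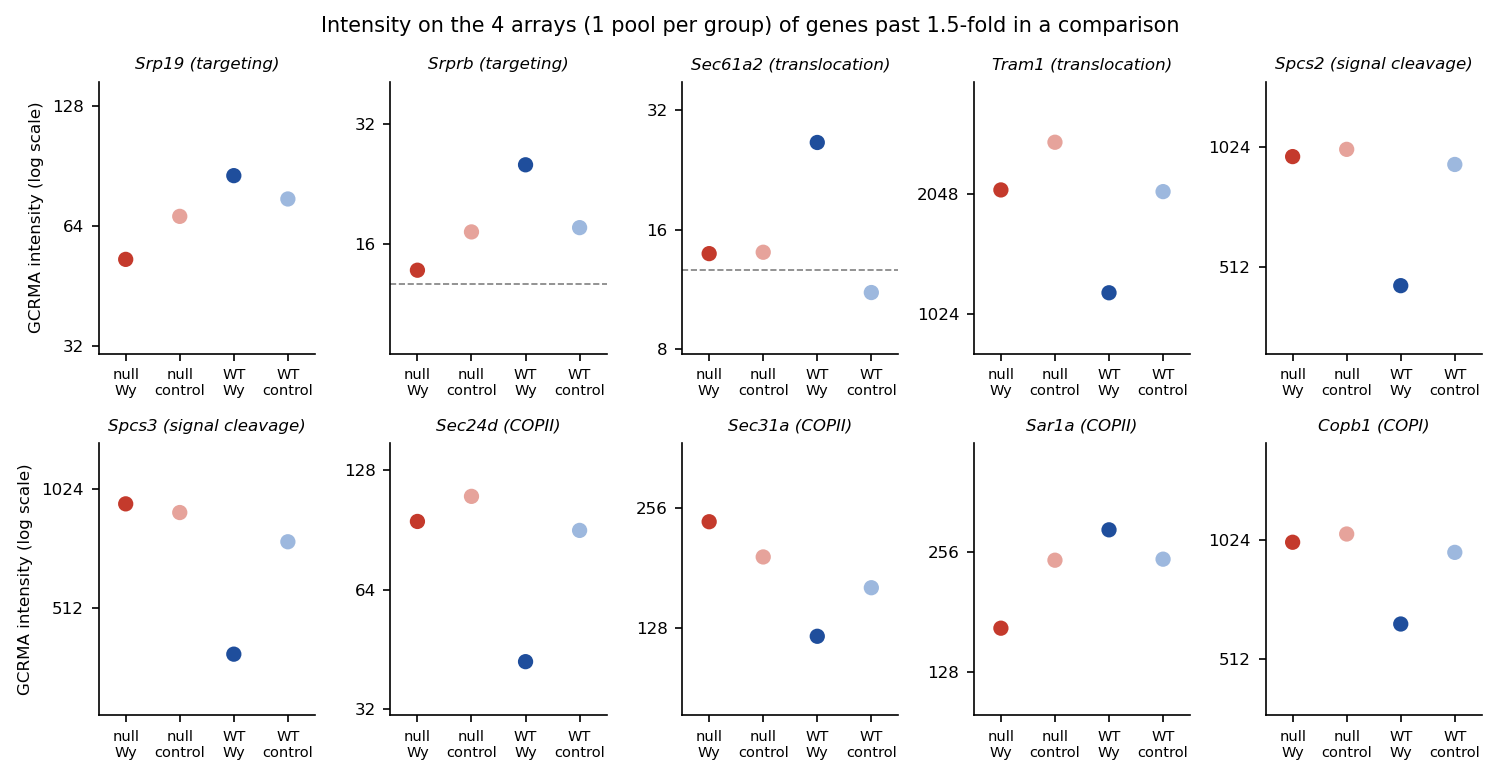
GCRMA intensity (log axis) of the 10 genes that passed 1.5-fold in a comparison, on the PPARα-null (null) and wild-type (WT) arrays with Wy14643 (Wy) or control food; each point is 1 pooled array and the dashed line is background, shown where it falls in the range. For Tram1, Spcs2, Spcs3, Sec24d, Sec31a and Copb1 the wild-type Wy14643 array is the lowest of the 4, and for Srp19, Srprb, Sec61a2 and Sar1a the highest, though the second probe set of Sar1a, not drawn, is lowest there.

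COPII genes held 1 lower gene on Wy14643 in wild-type livers and 3 that differed between the genotypes on Wy14643. Sec24d, whose product picks cargo for the vesicle, had intensities of 95.0 on the PPARα-null Wy14643 array, 109.9 on the PPARα-null control array, 42.2 on the wild-type Wy14643 array and 90.2 on the wild-type control array. It was 2.14-fold lower on Wy14643 in wild-type livers (log2 -1.10, the lowest response of the 36 genes) and 2.25-fold higher in PPARα-null livers relative to wild-type livers under Wy14643 (log2 1.17). Sec31a, which builds the outer cage, was at 237 and 193 in PPARα-null livers (Wy14643 and control) and 122 and 162 in wild-type livers (Wy14643 and control). The genotypes differed 1.94-fold on Wy14643, with the PPARα-null side higher (log2 0.96). Neither of its responses reached 1.5-fold, but they pointed in opposite directions, with log2 ratios of 0.29 in PPARα-null and -0.41 in wild-type livers. Sar1a, a GTPase that starts the coat, was at 165 and 245 in PPARα-null livers (Wy14643 and control) and 292 and 246 in wild-type livers (Wy14643 and control). It was 1.77-fold lower in PPARα-null livers relative to wild-type livers under Wy14643 (log2 -0.82). Its other probe set was at 137 and 116 in PPARα-null livers (Wy14643 and control) and 92.2 and 110.0 in wild-type livers (Wy14643 and control). That one ran the opposite way, with a log2 ratio of 0.57, so no direction is given for the gene. The 5 remaining COPII genes stayed under 1.5-fold in all 4 comparisons. Sar1b, the second SAR1 GTPase, which in humans is needed to export chylomicrons, was at 3045 and 3818 in PPARα-null livers (Wy14643 and control) and 3950.0 and 3385 in wild-type livers (Wy14643 and control). Sec23a, of the inner coat, was at 1593 and 1594 in PPARα-null livers (Wy14643 and control) and 1492 and 1356 in wild-type livers (Wy14643 and control). Sec23b, the other SEC23 gene, had log2 ratios on Wy14643 of 0.41 in PPARα-null and 0.34 in wild-type livers, both above control. Sec22b, a SNARE that travels in these vesicles, was at 0.12 in PPARα-null and 0.50 in wild-type livers. Its other probe set was at -0.15 and -0.09 in the same order, so no direction is given for Sec22b. Sec13, of the outer cage, was at -0.37 in PPARα-null and 0.11 in wild-type livers.

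Of the 7 COPI genes 1 passed 1.5-fold. Copb1, the β subunit, had intensities of 1008 on the PPARα-null Wy14643 array, 1057 on the PPARα-null control array, 628 on the wild-type Wy14643 array and 951 on the wild-type control array. It was 1.51-fold lower on Wy14643 in wild-type livers (log2 -0.60), just past the threshold, and 1.61-fold higher in PPARα-null livers relative to wild-type livers under Wy14643 (log2 0.68). The other 6 coatomer genes passed 1.5-fold in no comparison, with log2 ratios on Wy14643 in wild-type livers of -0.36 (Arcn1, the δ subunit) to 0.25 (Copa, the α subunit). Copa was at 1045 and 1065 in PPARα-null livers (Wy14643 and control) and 1069.6 and 899 in wild-type livers (Wy14643 and control). Copz1, the ζ subunit, was at 1075 and 1432 in PPARα-null livers (Wy14643 and control) and 1145 and 1273 in wild-type livers (Wy14643 and control). All 7 were below 0 on Wy14643 in PPARα-null livers, by log2 -0.41 to -0.03, and all 7 were above 0 in PPARα-null over wild-type livers on control food, by 0.03 to 0.35.

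Most of the set leaned the same way as the COPI genes, by small amounts. On Wy14643 against control in PPARα-null livers, 27 of 36 genes were below 0 (75%, against 49.8% of all named genes), with a median log2 ratio of -0.15, against 0.00 over all genes. By step these were 9 of 10 translocation, 7 of 7 COPI, 5 of 8 COPII, 3 of 5 signal cleavage and 3 of 6 targeting genes. In this comparison the Kupffer cell and sinusoidal endothelial marker lists had medians of -1.01 and -0.40, and the hepatocyte list -0.03. The stellate cell list had a median of 0.57, the lymphocyte list 0.08, and the 1 cholangiocyte marker above background was at 0.16. The part of any of these lists in the lean was not tested. In PPARα-null over wild-type livers on control food, 28 of 36 were above 0 (77.8%, against 54.4%), with a median of 0.12, against 0.02. Here 9 of 10 translocation, 7 of 8 COPII and 7 of 7 COPI genes were above 0. Of the targeting genes 3 of 6 were (median 0.01), and of the signal cleavage genes 2 of 5 (median -0.04). Both comparisons use the PPARα-null control array, and no gene reached 1.5-fold in either. The nearest were Sar1a at -0.57 for the first and Sec13 at 0.44 for the second. In wild-type mice on Wy14643, 18 genes lay below 0 and 18 above, with a median of -0.01, and the values nearest the threshold were Copb1 at -0.60 inside and Srprb at 0.53 outside. In PPARα-null over wild-type livers on Wy14643 the median was -0.03, with Copb1 at 0.68 inside and Srp9 at 0.56 outside.

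Of the 36 genes, 17 had 1 probe set and 19 had several, and 27 of 33 further probe sets were above background on at least 1 array. For the genes called on Wy14643 in wild-type livers, all 3 further probe sets had the direction of the first and 1, that of Spcs2 (log2 -0.67), also passed 1.5-fold. The second probe set of Sec61a2 was above background on the wild-type Wy14643 array only, so it gave at least a 1.23-fold higher value there. For the genes that differed by genotype under Wy14643, 4 of 5 had the same direction, the exception being Sar1a, and 0 passed 1.5-fold with values below background raised to it. Some genes that were not called had a further probe set that was: Sec63 at -0.94 and Arcn1 at -0.70 on Wy14643 in wild-type livers, Srp14 at 0.90 there, and Sec61a1 at -0.89 in PPARα-null and -0.94 in wild-type livers. Sec63 also had further probe sets at 0.76 and 1.06 for PPARα-null over wild-type livers on Wy14643.

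**Figure D4:**
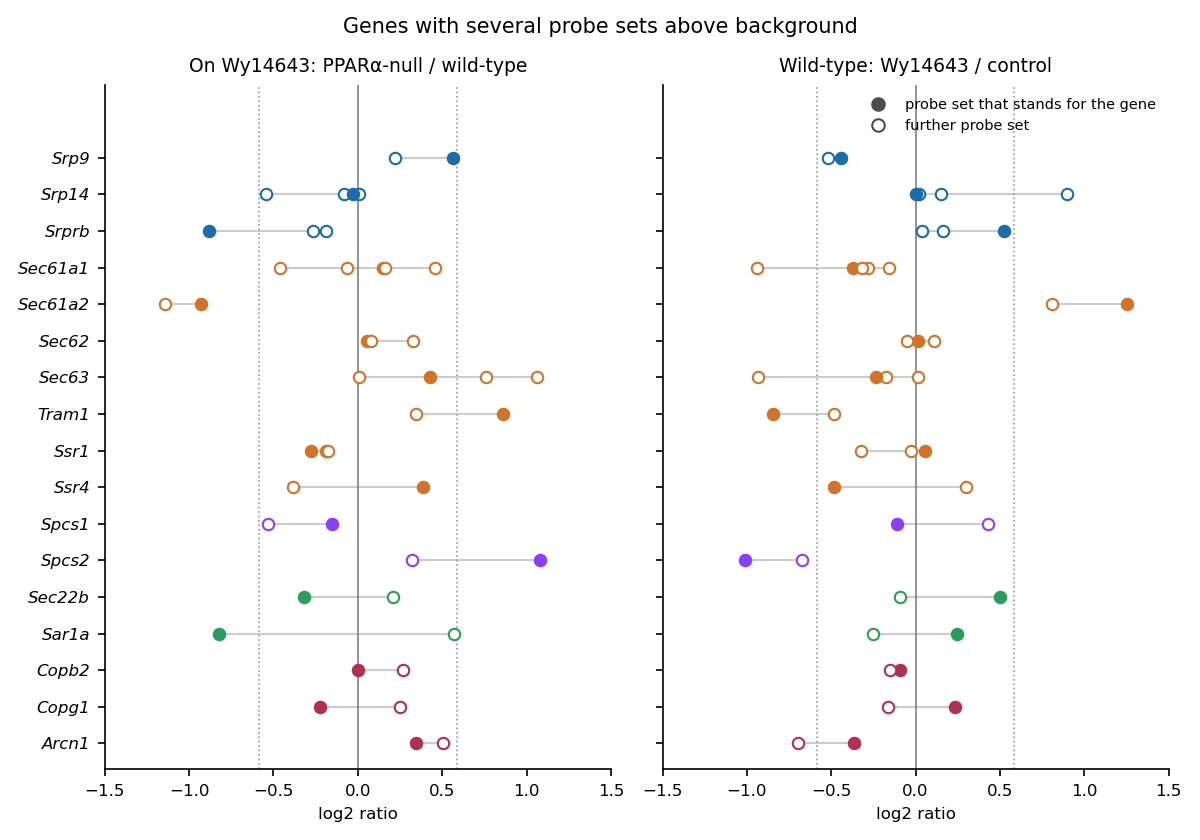
Log2 ratio of every probe set above background for the genes that have several, between the genotypes on Wy14643 and for Wy14643 over control in wild-type livers (filled, the probe set that stands for the gene; open, further ones; dotted lines mark 1.5-fold). For Sar1a the 2 probe sets lie on either side of 0 in both panels, and for Spcs2 both lie below the line in wild-type livers.

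Promoter sequences, 250 bases before to 50 after the start site, were taken from RefSeq (build GRCm38.p6) and matched 32 of the 40 listed genes, with 34 promoters. They were searched on both strands for letters known from XBP1, ATF6 and PPARα sites. TGACGTG, the core of the XBP1 element, was in 5 of the 34 (14.7%), against 2.01% of 32851 promoters of the same length. These were the promoters of Sec24d, Copb1, Srpr, Copb2 and Sec23a. CCACG, the shorter letters of the ATF6 element, which overlap the core where it reads TGACGTGG, were in 20 of 34 (58.8%), against 32.8%. The full ATF6 element (CCAAT followed 9 bases on by CCACG) was in 0 of 34, against 0.119%, and the PPARα element written as exact AGGTCA repeats 1 base apart was in 1 (2.94%), that of Srp54a, which was not measured, against 0.0396%. The 2 promoters of genes that were called, Sec24d on chromosome 3 (chr3:123267246-123267545, plus strand) and Copb1 on chromosome 7 (chr7:114254631-114254930, minus strand), are printed whole because they carry the core 26 and 27 bases before the start site, with the core in capitals, on the opposite strand (CACGTCA) in Copb1.
Sec24d: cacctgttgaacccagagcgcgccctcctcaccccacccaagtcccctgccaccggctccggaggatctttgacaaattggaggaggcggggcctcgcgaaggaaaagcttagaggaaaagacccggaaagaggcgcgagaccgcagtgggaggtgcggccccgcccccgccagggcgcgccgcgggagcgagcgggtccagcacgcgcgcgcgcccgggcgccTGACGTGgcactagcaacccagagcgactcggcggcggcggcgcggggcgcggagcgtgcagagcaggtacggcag
Copb1: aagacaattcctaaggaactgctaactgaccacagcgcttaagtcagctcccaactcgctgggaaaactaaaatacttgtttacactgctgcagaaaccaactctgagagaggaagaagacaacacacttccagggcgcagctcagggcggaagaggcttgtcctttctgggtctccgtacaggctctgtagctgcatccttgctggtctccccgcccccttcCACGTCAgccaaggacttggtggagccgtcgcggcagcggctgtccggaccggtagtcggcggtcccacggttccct

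The core of the other 3 genes is printed with 10 bases on each side, again in capitals, to set it beside those of Sec24d and Copb1. It began 13 bases before the start site in Srpr (chromosome 9, plus strand), the SRP receptor's main subunit, 6 bases before it in Copb2 (chromosome 9, plus strand, opposite strand of the motif), the β′ coat subunit, and 7 bases after it in Sec23a (chromosome 12, minus strand).
Srpr: gctgctggtgTGACGTGtcccgcgctt
Copb2: ccggaagttcCACGTCAgtgggttggc
Sec23a: tcctccccttTGACGTGgcagaggcgg

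The 5 genes with the core differed in their responses. On Wy14643 in wild-type livers, Sec24d and Copb1 had log2 ratios of -1.10 and -0.60, whereas Srpr was at 0.39, Copb2 at -0.09 and Sec23a at 0.14. In PPARα-null mice they were at -0.21, -0.07, 0.08, -0.15 and -0.00 in the order Sec24d, Copb1, Srpr, Copb2 and Sec23a. A match is a description of these windows only.

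Genes of neighbouring pathways, from 6 lists with 101 genes of which 87 were above background, were chosen with earlier results of these data known. Over all 87, Wy14643 left 1 higher and 2 lower in PPARα-null livers and 16 higher and 5 lower in wild-type livers, and 12 were higher and 14 lower in PPARα-null livers relative to wild-type livers under Wy14643. In wild-type livers that is 18.4% higher and 5.75% lower, against 14.8% and 15.7% of all named genes, and between the genotypes 13.8% and 16.1%, against 17.3% and 16.3%. The proteins that insert tail-anchored membrane proteins, with the ER membrane complex, had 0 of 13 higher and 1 lower with Wy14643 in PPARα-null livers, and 6 higher and 0 lower in wild-type livers. The log2 ratio of Get4 was -0.16 in PPARα-null livers and 1.32 in wild-type livers, that of Emc4 was -0.39 and 0.83, and that of Sgta was 0.15 and 0.82, each in that order. Emc9, the 1 lower gene in PPARα-null livers, had a value below background there on Wy14643, and its log2 ratio in wild-type livers was 1.09. Under Wy14643, 0 of these 13 genes were higher and 5 lower in PPARα-null livers relative to wild-type livers. Of 11 oligosaccharyltransferase genes, which attach sugar chains as proteins enter, 2 were higher in wild-type livers, the catalytic subunit gene Stt3b (0.99) and Ost4 (0.59). Of 17 p24 proteins and cargo receptors, which sort cargo between the endoplasmic reticulum and the Golgi, 2 were higher and 3 lower in wild-type livers, with Tmed5 at 1.49, Surf4 at -0.92, Tmed9 at -0.85 and Cnih4 at 0.73.

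Tmed5 stood apart, since it had intensities of 342 and 265 in PPARα-null livers (Wy14643 and control) and 2266 and 805 in wild-type livers (Wy14643 and control), and was 6.62-fold lower in PPARα-null livers relative to wild-type livers under Wy14643 and 3.03-fold lower on control food. Of 10 further COPII genes, 1 was higher and 2 lower in wild-type livers on Wy14643, led by Sec16b, which marks the sites where COPII vesicles form, at 756 and 648 in PPARα-null livers and 213 and 584 in wild-type livers (log2 0.22 in PPARα-null, -1.46 in wild-type livers). The others were Tfg at 0.78 and Preb at -0.72 in wild-type livers. Of 11 further COPI genes and Arf regulators, 1 was higher, the second ζ subunit Copz2 (1.48), and 0 were lower. Arfgap2, with the next largest ratio, was at -0.56. Of 25 SNAREs and tethers, which fuse vesicles with their target, 4 were higher and 0 lower, with Stx18 at 0.81 in wild-type livers. Bet1l was the 1 gene of all 6 lists that was higher on Wy14643 in both genotypes, at 0.64 in PPARα-null livers and 0.67 in wild-type livers.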

How the data were processed

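Liver RNA of the 4 groups was hybridised to Affymetrix MOE430A arrays, 1 pooled array per group. The authors computed the deposited intensity values with GCRMA (version 2.20 in the submitters' processing notes), which corrects background, normalizes between arrays and summarises probes into probe sets; which arrays entered the GCRMA run is not given in the sources used here. Values ran from 1.55 to 31270.2, so they were taken as linear and converted to log2.

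Of 22690 probe sets, 64 controls were left out and 22626 used; 20380 name 1 gene, 691 several and 1555 none. The probe set with the highest mean over the 4 arrays stood for a gene. The members and lists were chosen with earlier results of these data known. Every member past 1.5-fold in a comparison was named with its 4 values, with up to 2 others a step by mean intensity, and the 2 to 4 list genes with the largest ratio on Wy14643 in wild-type livers; other genes named as exceptions were chosen after their values were seen. The alternatives were a filter on dim genes, a floor at background, 32 added, median centring, cyclic loess, dropping probe sets with suffix _s_at, _x_at or _a_at, which can match several transcripts, the median over probe sets, no background rule and a 2-fold threshold. The calculation was tested on simulated data. Cyclic loess used limma 3.58.1 in R 4.3.3, and all else matplotlib 3.10.9, scipy 1.17.1, pandas 2.3.3 and numpy 2.4.6 in Python 3.11.15.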

Additional observations from a re-analysis of the deposited data

How the results depend on the processing

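Counts and medians over the 36 genes were recomputed under each alternative. The SD of log2 ratios of the PPARα-null pair over all named genes (0.33) was the yardstick for a median, and a factor of 1.5 that for a count. By these limits, 253 such values stayed within and 11 moved beyond. Most medians were smaller in size than 0.33, so staying within it does not show that a median kept its size or sign. On Wy14643 in PPARα-null livers the median of the 36 genes ran from -0.18 to -0.07. By step it ran from -0.14 to 0.01 for targeting, -0.19 to -0.14 for translocation and -0.13 to 0.01 for signal cleavage. For COPII it ran from -0.13 to -0.00, and for COPI from -0.18 to -0.12. Within the limits, the genes lower on Wy14643 in wild-type livers numbered 4 to 6, those higher in PPARα-null livers under Wy14643 5 to 7, and those lower there 3 or 4. The gene higher on Wy14643 in wild-type livers, Sec61a2, gave a count of 0 in place of 1 with genes above background on all 4 arrays only, with 32 added, and without probe sets that may bind several transcripts. Over all named genes these counts were 997 of 6707, 782 of 7739 and 903 of 6077, against 1142 of 7739. The 4 genes lower in PPARα-null livers relative to wild-type livers under Wy14643 became 1 with 32 added, 1 without those probe sets, 2 with the median over probe sets and 0 at 2-fold. Over all named genes the matching counts were 886 of 7821, 1032 of 6149, 1231 of 7827 and 639 of 7821, against 1277 of 7821. Centring arrays on their median gave 1 gene, Sar1a, lower on Wy14643 in PPARα-null livers in place of 0. Over all named genes that count was 368 in place of 333. Sar1a had lain nearest the threshold at -0.57, and its other probe set was at 0.24 in that comparison. At 2-fold, 2 genes were lower on Wy14643 in wild-type livers in place of 5, and 3 higher in PPARα-null livers relative to wild-type livers under Wy14643 in place of 6. All named genes also fell at 2-fold, to 572 of 7739 in place of 1218 for the first count and to 695 of 7821 in place of 1355 for the second. The signal cleavage median between the genotypes on Wy14643 was 0.49 in place of -0.07 without probe sets that may bind several transcripts. Sar1a reversed there, at 0.57 in place of -0.82, because another probe set then stands for it. Sec61a2, Sec31a, Srp14, Ssr2, Ssr3, Cope, Copz1 and Sec11c, a signal cleavage gene, had only probe sets that may bind several transcripts. All of them dropped out without those probe sets, so the counts and medians there rest on fewer genes. The call of Sec31a could not be checked in this way, and it held under the 6 alternatives that kept the gene. For the other moved values the cause was not tested. Tram1, Spcs2, Spcs3 and Sec24d passed 1.5-fold in both comparisons that called them under all 7 alternatives tried for single genes, Srp19 under 6 of 7 and Srprb under 4 of 7. The calls of Sec61a2 held under 4 of the 5 alternatives that kept the gene. It was left out, and so not called, with genes above background on all 4 arrays only and without probe sets that may bind several transcripts. Copb1 lost its call in wild-type livers with 32 added (-0.58). Over all named genes, 32 added lowered the counts on Wy14643 in PPARα-null livers to 52 higher and 142 lower, against 173 and 333 in the values reported.

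No paired analysis was possible because each group is 1 array and the labels give no replicate numbers. With 1 array per group, the difference between mice cannot be measured, and dim genes such as Srprb and Sec61a2, close to the background of 12.7, are the least certain.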
